A study of Mus musculus with 4 samples.

Results

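Genes that mark mast cells, basophils and eosinophils were measured in dendritic cells grown from the marrow of Rbpj-floxed mice with and without CD11c-cre. The 9 genes are Hdc, Fcer1a, Ms4a2, Siglecf, Cd200r3, Cpa3, Mcpt8, Prg2 and Epx, and they were taken as every array probe whose RefSeq accession belongs to 1 of these symbols. That gave 10 probes, 2 of them for Siglecf, out of 39429 probes and 19751 named genes on the array. The Rbpj-deficient cells (RFF11) came from Rbpj fl/fl mice that also carried CD11c-cre, a recombinase driven by the promoter of the dendritic cell integrin CD11c (Itgax). The control cells (RFF) came from Rbpj fl/fl mice without the cre, so both groups carry the floxed alleles, and the loss of Rbpj and the presence of the cre cannot be told apart. In both groups marrow of C57BL/6 females 8 weeks old was cultured for 6 days with 20 ng/mL GM-CSF, and CD11c+ cells were isolated. Each group has 2 arrays. RNA was pooled from 4 mice per genotype, and nothing in the labels says that the 2 arrays of a genotype hold separate pools, and the p-values thus cover only differences between these arrays, possibly technical ones.

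Mast cells, basophils and eosinophils are granulocytes of allergy and of defence against parasites. Mast cells and basophils carry the high-affinity IgE receptor, whose alpha chain (Fcer1a) binds IgE and whose beta chain (Ms4a2) amplifies the signal, and release histamine, proteases and lipid mediators when the receptor is crosslinked. Eosinophils store the toxic proteins Prg2 and Epx in their granules. GM-CSF cultures of mouse marrow yield dendritic cells mainly, with macrophages and granulocytes beside them. Rbpj binds DNA and carries the Notch signal to its target genes.

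On all 4 arrays 55.2% to 58.4% of 43020 gene spots were well above background, the scanner software's own flag. Levels below are log2 signal minus the 75th percentile of the array, so 0 marks that percentile, and the lowest level flagged well above background lay between -5.95 and -5.50. Levels of different probes are not comparable with each other. Rbpj, the targeted gene, read 1.37 and 1.44 in Rbpj-deficient cells and 2.69 and 2.61 in control cells, which left 42.1% of the control signal (adjusted p = 0.0278, limma). The sources used here do not say where its probes lie relative to the floxed exons. Of 9 dendritic cell markers tested, all were well above background on all 4 arrays, among them Itgax and the class II genes H2-Aa, H2-Ab1 and Cd74. None of the 9 passed the test, with Cd209a farthest from 0 (-1.33, adjusted p = 0.159).

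In Rbpj-deficient cells the histamine-forming enzyme Hdc rose and the inhibitory surface receptor Siglecf fell, each by less than 2-fold. The mast cell and basophil proteases Cpa3 and Mcpt8 had higher values in Rbpj-deficient cells, and the activating receptor Cd200r3 lower ones, without passing the test over all genes. The eosinophil granule protein Prg2 showed no separation of the genotypes, and Fcer1a, Ms4a2 and Epx were too dim to be tested. Thus 6 of the 9 genes entered the test, all 6 of them well above background on all 4 arrays, and 1 rose, 1 fell and 4 did not pass. Over all 17974 genes tested, 1.88% passed (1.04% higher, 0.84% lower), at a threshold of 0.05 on the Benjamini-Hochberg adjusted p of limma's moderated test. The values of the genotypes did not overlap for 5 of the 6 genes, 3 higher and 2 lower, against 59.1% of all genes tested (26.8% higher, 32.3% lower). An unadjusted limma p under 0.05 was reached by 5 of the 6, against 24.1% of all genes tested. With 2 arrays against 2, an exact permutation test of a single gene cannot go below p = 0.333, so the adjusted p-values rest on the spread shared across genes in the limma fit.

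**Figure D1:**
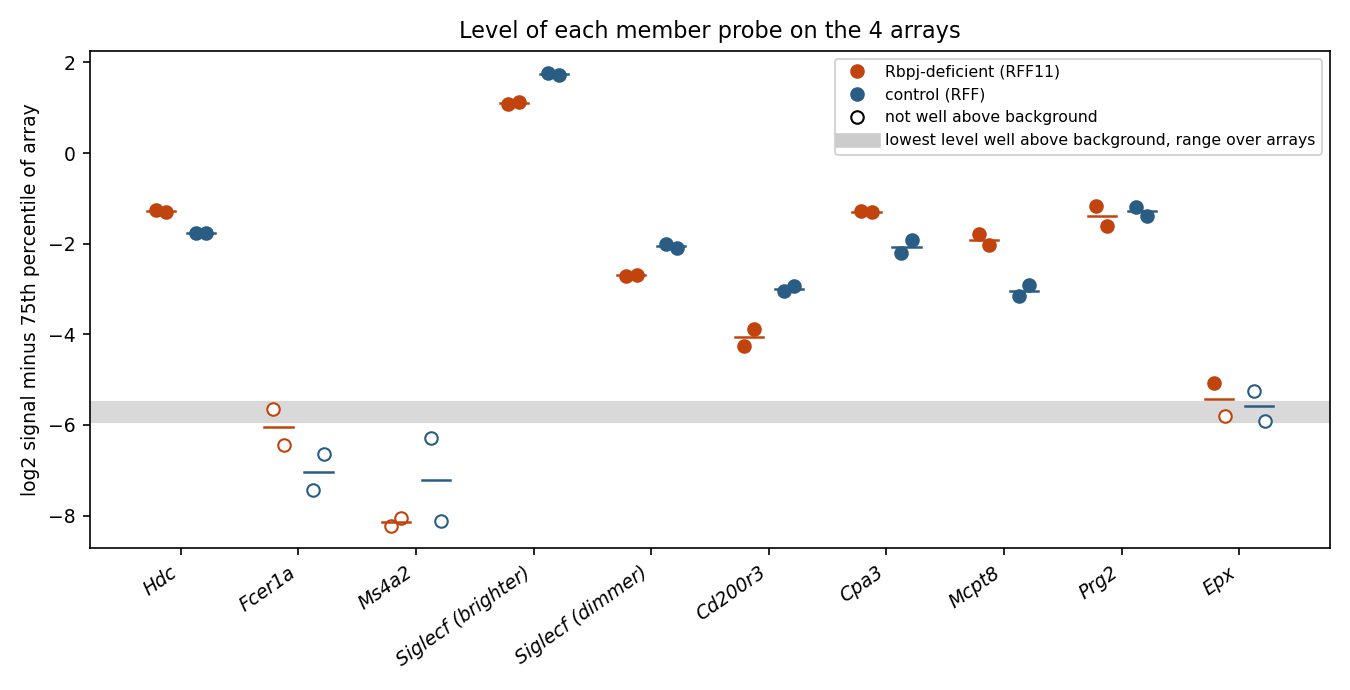
Levels of the 10 probes (log2 signal minus the 75th percentile of the array, vertical axis) on each Rbpj-deficient array (orange) and control array (blue), with short lines at the means. Hdc, both Siglecf probes, Cd200r3, Cpa3, Mcpt8 and the dim Fcer1a have groups that do not overlap, while open symbols show that Fcer1a and Ms4a2 were not well above background on any array and Epx on only 1.

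Histamine is made from histidine by histidine decarboxylase, the product of Hdc, which mast cells and basophils use heavily and which immature myeloid cells of mouse marrow also express. Hdc read -1.27 and -1.31 in Rbpj-deficient cells, against -1.77 and -1.77 in control cells. Both Rbpj-deficient arrays lay above both control arrays, and the 2 arrays of each genotype nearly coincided. The log2 change was 0.48 (SE 0.05, 95% interval 0.33 to 0.63), or 1.40-fold, with adjusted p = 0.0477 in limma. The call lies close to the threshold: adjusted p was 0.0511 after quantile normalisation and 0.0634 with median scaling. Without any 1 of the 4 arrays, where at most 1 of all genes passed, Hdc did not pass, with log2 changes of 0.46 to 0.50 and adjusted p of 0.147 to 0.171 (limma).

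Siglecf encodes a sialic acid-binding inhibitory receptor best known from eosinophils and from alveolar macrophages of the mouse. Its brighter probe read 1.08 and 1.14 in Rbpj-deficient cells, against 1.76 and 1.71 in control cells. Its dimmer probe read -2.70 and -2.68 in Rbpj-deficient cells, against -2.01 and -2.09 in control cells. Both probes separated the genotypes, in the same direction and by nearly the same amount. The brighter probe fell by 0.63 on the log2 scale (SE 0.06, 95% interval -0.79 to -0.47), or to 64.7% of the control signal, with adjusted p = 0.0379 in limma. The dimmer probe stood at 63.9% of the control signal (log2 change -0.65, SE 0.06, adjusted p = 0.0381 in the limma fit over 22044 probes, of which 1.73% passed). Without any 1 array the brighter probe did not pass, with log2 changes of -0.66 to -0.60 and adjusted p of 0.134 to 0.161.

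Cd200r3 encodes a relative of the CD200 receptor that in mice signals activation in mast cells and basophils. It read -4.26 and -3.88 in Rbpj-deficient cells, against -3.05 and -2.94 in control cells. All 4 values were well above background, and both Rbpj-deficient arrays lay below both control arrays. The log2 change was -1.08 (SE 0.15, 95% interval -1.48 to -0.67), or 2.11-fold lower, and did not pass (adjusted p = 0.0590, limma). Normexp, a background correction with an offset of 50, here followed by quantile normalisation, gave -0.67, which passed (adjusted p = 0.0131). Changes of dim probes come out smaller under normexp. Cd200r3 also passed with median scaling (adjusted p = 0.0377) and when the test was limited to genes well above background on all 4 arrays (adjusted p = 0.0472).

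Mcpt8 encodes a serine protease of mouse basophil granules. It read -1.79 and -2.04 in Rbpj-deficient cells, against -3.16 and -2.92 in control cells. The genotypes did not overlap, and the log2 change of 1.13 (SE 0.13, 95% interval 0.76 to 1.49), or 2.18-fold, was the highest among the 6 tested genes. Its adjusted p of 0.0502 (limma) lay just above the threshold. The authors' deposited log2 values, which differ from the levels used here in scaling and centring, gave 1.13 with an adjusted p just below it. Without any 1 array the log2 change was 1.003 to 1.25 and the adjusted p 0.136 to 0.161.

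Cpa3, carboxypeptidase A3, is a metalloprotease stored in mast cell granules and present in basophils. It read -1.27 and -1.31 in Rbpj-deficient cells, against -2.21 and -1.92 in control cells. The genotypes did not overlap, and the control arrays lay farther apart than the Rbpj-deficient ones. The log2 change was 0.77 (SE 0.12, 95% interval 0.45 to 1.096), or 1.71-fold, and did not pass (adjusted p = 0.0644, limma). It passed with normexp (0.65, adjusted p = 0.0337).

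Among the eosinophil granule proteins, Prg2 (major basic protein) read -1.17 and -1.61 in Rbpj-deficient cells, against -1.19 and -1.39 in control cells. The values overlapped, with a log2 change of -0.10 and a 95% interval of -0.60 to 0.40 (adjusted p = 0.760, limma), and the change stood at 0.12 without Rbpj-deficient replicate 2. Epx (eosinophil peroxidase) read -5.07 and -5.80 in Rbpj-deficient cells, against -5.25 and -5.91 in control cells. Only the first Rbpj-deficient array was well above background, and the genotypes overlapped, so no difference was detectable at this signal.

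Neither specific chain of the high-affinity IgE receptor was well above background on any array. Fcer1a had scanner signals of 28.5 and 16.6 in Rbpj-deficient cells, against 7.94 and 14.3 in control cells. Ms4a2 had scanner signals of 4.81 and 5.45 in Rbpj-deficient cells, against 17.4 and 5.14 in control cells. None of these 8 values was flagged well above background, so no fold change is given. Both Rbpj-deficient values of Fcer1a lay above both control values, and 59.1% of all genes tested showed no overlap in either direction. The Rbpj-deficient value of replicate 1 lay above 23.4, the lowest signal of any probe flagged so on that array. It was itself not flagged, so no direction is read from Fcer1a. The third chain, Fcer1g, which many myeloid cells use with other Fc receptors, was bright on all 4 arrays at 6.79 and 6.69 in Rbpj-deficient cells, against 6.86 and 6.89 in control cells (log2 change -0.13, adjusted p = 0.293).

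**Figure D2:**
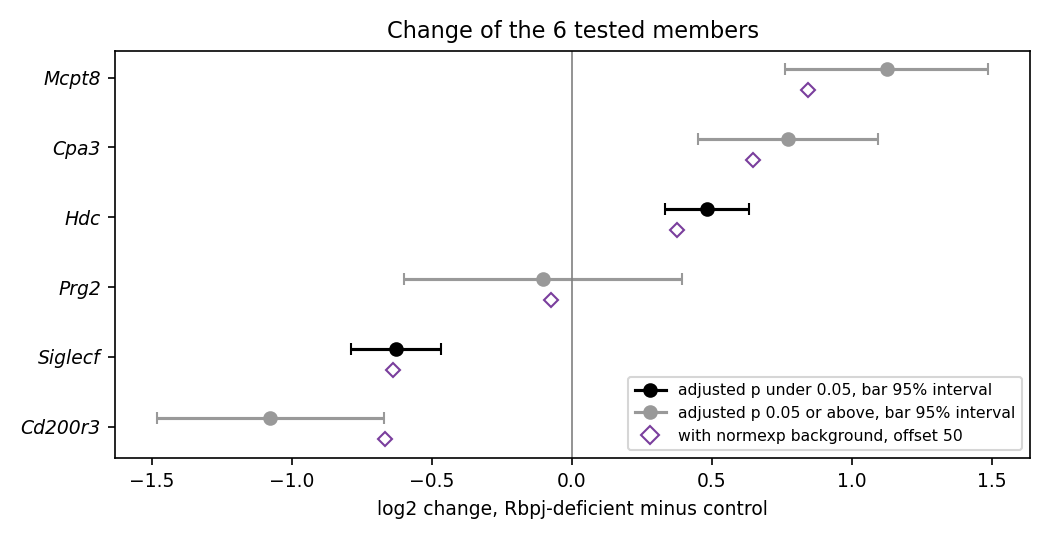
Log2 change (Rbpj-deficient minus control, horizontal axis) of the 6 tested genes, with 95% intervals from limma, black where the adjusted p was under 0.05, and open diamonds for the change with normexp background correction. Hdc at 0.48 and Siglecf at -0.63 passed, Mcpt8 and Cd200r3 lay farther from 0 with wider intervals, and normexp brought Cd200r3 to -0.67.

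The 4 sequences below are the 250 bases before the start that the RefSeq promoter table (GRCm38.p6) gives, with no transcript named. They are those of the 2 genes that passed and of Cpa3 and Cd200r3, which hold AGATAA. That is a form of the core motif of GATA factors, the zinc-finger proteins that direct mast cell, basophil and eosinophil development. Capitals mark AGATAA, searched on both strands. Other forms of the motif were not searched, so a window without capitals may hold one. The Hdc window is chr2:126618679-126618928 (minus strand), that of Siglecf chr7:43351091-43351340 (plus strand), that of Cpa3 chr3:20242182-20242431 (minus strand) and that of Cd200r3 chr16:44943428-44943677 (plus strand), each printed 5′ to 3′ along the gene. RefSeq genes span all their annotated transcripts, and the starts used lie 5347 bases inside that span for Hdc, 28 for Cpa3, 82 for Cd200r3 and 0 for Siglecf, so another transcript may begin farther upstream.
Hdc: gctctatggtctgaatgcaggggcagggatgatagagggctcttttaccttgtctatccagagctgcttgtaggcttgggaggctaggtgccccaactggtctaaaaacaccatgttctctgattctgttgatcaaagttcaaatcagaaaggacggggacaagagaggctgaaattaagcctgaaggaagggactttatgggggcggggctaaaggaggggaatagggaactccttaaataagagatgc
Siglecf: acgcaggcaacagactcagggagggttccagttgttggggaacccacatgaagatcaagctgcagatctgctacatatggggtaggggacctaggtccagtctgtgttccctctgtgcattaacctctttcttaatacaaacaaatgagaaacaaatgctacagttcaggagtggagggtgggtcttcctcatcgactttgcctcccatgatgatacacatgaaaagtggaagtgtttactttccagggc
Cpa3: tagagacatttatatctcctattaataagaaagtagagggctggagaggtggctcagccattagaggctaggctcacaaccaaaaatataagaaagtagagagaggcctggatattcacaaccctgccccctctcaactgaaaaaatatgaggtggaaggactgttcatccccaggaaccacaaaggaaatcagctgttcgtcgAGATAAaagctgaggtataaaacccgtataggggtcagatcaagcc
Cd200r3: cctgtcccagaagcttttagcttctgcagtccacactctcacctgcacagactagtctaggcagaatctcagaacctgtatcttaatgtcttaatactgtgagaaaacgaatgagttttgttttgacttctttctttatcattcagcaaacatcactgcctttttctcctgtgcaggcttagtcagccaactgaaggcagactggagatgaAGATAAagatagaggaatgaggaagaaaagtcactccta
A window was at hand for 8 of the 9 genes, all but Prg2. AGATAA was found in 4 of the 8, those of Cpa3, Cd200r3, Fcer1a and Ms4a2, and in 9.99% of 32851 mouse promoter windows of the same length. Its first base lay 46 bases before the start used in Cpa3 and 39 before it in Cd200r3, where it falls inside the annotated gene span. TGGGAA, a form of the core motif bound by RBPJ, searched on both strands, was found in 0 of the 8 windows and in 21.6% of all windows. Forms of the RBPJ motif without these letters were not searched, so these windows may hold one. A match describes the letters only, and the absence of one says nothing of other forms or of sites elsewhere.

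Other genes of the same cell types were read from lists. Without 1 array limma called at most 1 gene of all and none of the listed ones, so the loss of a call there says nothing of a single gene. All 9 listed genes that passed kept their sign without each array, among them Hpgds at 1.35 to 1.42 and Il1rl1 at -1.62 to -1.23. Of 12 signalling genes of the IgE receptor, all 12 were tested and none passed (median log2 change -0.01, equal to the -0.01 of all genes tested), with Inpp5d, an inhibitory phosphatase, farthest from 0 at 0.21 (adjusted p = 0.157). Of 18 mast cell genes for proteases and secretion, 9 were tested, 2 rose, none fell and 7 did not pass (median 0.37). Hpgds, which makes prostaglandin D2, read -1.32 and -1.32 in Rbpj-deficient cells, against -2.67 and -2.74 in control cells, and rose by 1.39 (SE 0.06, adjusted p = 0.0183). Ltc4s, which makes leukotriene C4, read 3.52 and 3.52 in Rbpj-deficient cells, against 2.64 and 2.61 in control cells, and rose by 0.89 (SE 0.05, adjusted p = 0.0322). Both enzymes also work in dendritic cells or macrophages. The tryptase Tpsb2 (log2 change 0.43, adjusted p = 0.203) and the vesicular amine transporter Slc18a2 (0.50, adjusted p = 0.198) were well above background on all 4 arrays and did not pass. With normexp their changes were 0.18 and 0.17. The stem cell factor receptor Kit (0.25, adjusted p = 0.458) did not pass either. Of the 9 tested, 6 lay above 0. The 3 below it were Ndst2 (-0.39, adjusted p = 0.0677), Cd63 (-0.09, adjusted p = 0.382) and Srgn (-0.06, adjusted p = 0.786). The protease Mcpt4 was well above background on 2 arrays and Mcpt1 and Mcpt2 on 1 each, while the tryptase Tpsg1, the chymase Cma1, the receptors Mrgprb1 and Mrgprb2 and the secretory gene Rab27b were not on any array.

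Of 6 basophil genes tested out of 9, none passed (median -0.37). The basophil protease Prss34 read -2.35 and -2.29 in Rbpj-deficient cells, against -3.51 and -3.03 in control cells, a log2 change of 0.95 (adjusted p = 0.0829). It was the only 1 of the 6 above 0, and the other 5 lay below. Il4 stood at -0.34 (adjusted p = 0.152) and Il18r1 at -0.17 (adjusted p = 0.458). Il13 and Itga2 were not well above background on any array. The relatives of Cd200r3 also had values below 0, with Cd200r1 at -0.48 (adjusted p = 0.0546), Cd200r4 at -0.54 (adjusted p = 0.0640) and Cd200r2 at -0.40 (adjusted p = 0.202). These genes are close copies of each other, and whether their probes tell them apart was not tested.

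Of 6 eosinophil genes tested out of 8, none passed (median -0.53). The ribonuclease Ear6 stood at -0.67 (adjusted p = 0.0614), with Ear1, Ear2 and Ear10 between -0.62 and -0.51, and the probes of these near-identical genes may share signal. The interleukin-5 receptor chain Il5ra read -5.25 and -2.94 in Rbpj-deficient cells, against -5.96 and -5.30 in control cells, where 1 of 2 arrays was well above background. Its log2 change of 1.54 was the farthest from 0 in the list (adjusted p = 0.345, and 0.70 with normexp), with the second Rbpj-deficient array far above the other 3. The eotaxin receptor Ccr3 and the granule protein Prg3 were not well above background on any array.

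Of 7 genes of histamine transport, breakdown and sensing, 5 were tested, none rose, 1 fell and 4 did not pass (median -0.25). Aoc1, the diamine oxidase that degrades histamine, read -0.85 and -0.96 in Rbpj-deficient cells, against -0.01 and 0.14 in control cells, and fell by 0.97 (SE 0.09, adjusted p = 0.0379). Of the 5 tested, 2 lay above 0 and 3 below, among the latter Hnmt at -0.25 (adjusted p = 0.304). Histamine itself was not measured. Of 7 Siglec family genes tested beside Siglecf, none passed (median 0.00), with Siglech farthest from 0 at 0.66 (adjusted p = 0.154). Of 12 lineage transcription factors tested out of 13, none passed (median -0.19). Gata2, which mast cells and basophils need, stood at 0.15 (adjusted p = 0.533), Mitf, a mast cell factor and the farthest of the 12 from 0, at -0.40 (adjusted p = 0.0685), and Gata1 was not well above background on any array. Of 8 cytokine receptors of these lineages, 1 fell and 7 did not pass (median -0.20). That 1 was the IL-33 receptor Il1rl1, at -0.36 and 0.03 in Rbpj-deficient cells, against 1.26 and 1.26 in control cells (log2 change -1.43, SE 0.15, adjusted p = 0.0434), and its 3 probes ranged from -1.43 to -0.62.

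**Figure D3:**
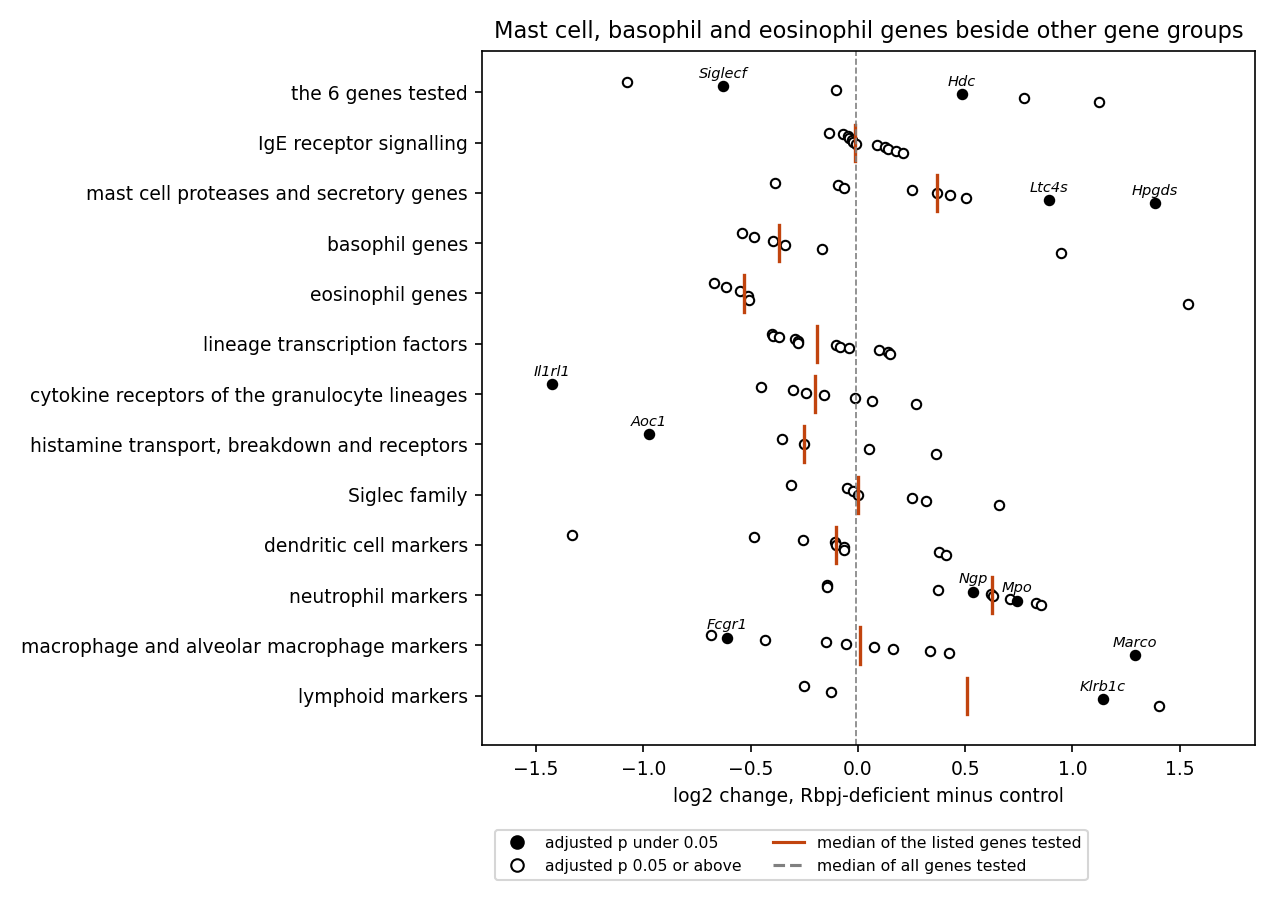
Log2 change (Rbpj-deficient minus control, horizontal axis) of the 6 tested genes and of the genes tested in each of 12 lists, filled where the adjusted p was under 0.05, with red lines at list medians and a dashed line at the median of all genes. Ltc4s and Hpgds of the mast cell list, which also work in dendritic cells or macrophages, rose, and Il1rl1 and Aoc1 fell. The medians of the basophil and eosinophil lists lay at -0.37 and -0.53 with no gene past the threshold.

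Markers of other cells that the culture could hold were read beside these results. Of 10 neutrophil and granule genes tested, 2 rose, none fell and 8 lay above 0 (median 0.63). The 2 that rose were the granule genes Ngp (log2 change 0.54, adjusted p = 0.0445) and Mpo (log2 change 0.74, adjusted p = 0.0378, and a change of 0.45 with normexp). Below 0 lay Mmp8 (-0.14, adjusted p = 0.558, limma) and Elane (-0.14, adjusted p = 0.264, limma). Prtn3 (0.37, and 0.08 with normexp) was well above background on both Rbpj-deficient arrays but only 1 control array. The summed level of all 10, in which S100a9 (log2 change 0.85, adjusted p = 0.0813) was the brightest probe on each array and which is no share of cells, was 5.76 and 5.56 in Rbpj-deficient cells, against 4.99 and 5.21 in control cells, on the log2 scale. Of 10 macrophage and alveolar macrophage markers, 1 rose (Marco, 1.29, adjusted p = 0.0322), 1 fell (Fcgr1, -0.61, adjusted p = 0.0424) and 8 did not pass (median 0.01). The summed level of these, no share of cells either, was 8.20 and 7.80 in Rbpj-deficient cells, against 8.12 and 8.22 in control cells. Fabp5 (log2 change -0.43, adjusted p = 0.136, limma) was the brightest probe in it on each array. Next was Chil3, at 6.40 and 5.41 in Rbpj-deficient cells, against 5.42 and 5.54 in control cells. Of 4 lymphoid markers tested out of 9, 1 rose (the natural killer receptor Klrb1c, 1.14, adjusted p = 0.0379, and a change of 0.59 with normexp) and 3 did not pass (median 0.51). Cd3g (1.40, adjusted p = 0.104), Cd3e (-0.13, adjusted p = 0.603) and Cd4 (-0.25, adjusted p = 0.214) were well above background on all 4 arrays, while Ms4a1, Cd8a and Ncr1 were not well above background on any array. The part of these cells in the values of Hdc, Siglecf, Mcpt8 and Cpa3 was not tested, and in bulk RNA fewer cells of a type and less RNA per cell cannot be told apart.

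By the distance between centred log2 levels over the 4 arrays, the named genes nearest to Hdc among 12293 were Supt20, Pvr and Il17ra, at root mean square distances of 0.01 each. Those nearest to Siglecf were Coa5, Fbxo4 and Khdrbs3, at 0.02 each. Any 2 genes with the same change and little spread lie close by this measure.

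The plot of adjusted p by processing choice sets the 6 tested genes side by side. Hdc and Siglecf both passed in 5 of the 12 alternatives shown, whereas all 6 genes missed the threshold when 1 array was left out and when dim probes were kept. Prg2 did not pass under any of the 12.

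**Figure D4:**
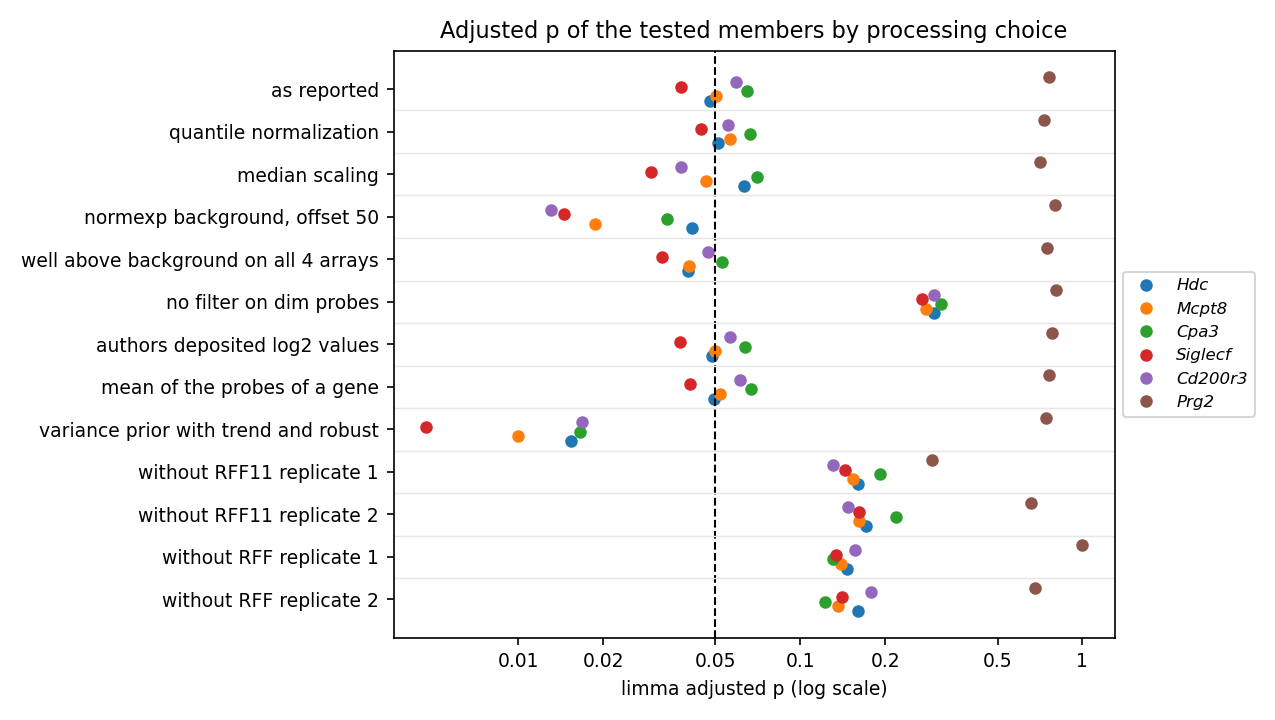
Limma adjusted p (log scale, horizontal axis) of the 6 tested genes as reported and under 12 alternatives, with the dashed line at 0.05. Hdc, Siglecf, Cd200r3, Cpa3 and Mcpt8 lie close to the line as reported, between 0.0379 and 0.0644, below it with normexp and with the variance prior that follows signal, and above it whenever 1 array was left out.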

How the data were processed

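Labels describe 4 one-colour arrays. Per the labels, RNA was pooled from 4 mice per genotype and 150 ng was labelled with Cy3. Per the file headers, the deposited intensity is the processed signal of Agilent Feature Extraction 10.7.1.1, background-subtracted and not scaled between arrays, all 4 on 1 slide, so position and genotype cannot be told apart. The authors' deposited log2 table, made by steps the labels do not give, equals these log2 signals scaled per array and centred per probe (r = 0.9999 per array, same direction, column medians of -0.03 and 0.02 for Rbpj-deficient and 0.05 and -0.03 for control replicates 1 and 2).

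Outlier spots (127 to 176 per array, 0 of the 10 probes) were left out. Accessions were matched to RefSeq symbols of GRCm38.p6 (26055 probes with 1 symbol, 0 with several, 13374 with none). The header build of the array annotation is another, mm9. A probe was kept if both arrays of either genotype measured it well above background, and each gene took its brightest probe. limma 3.58.1 in R 4.3.3 compared genotypes with Benjamini-Hochberg adjustment, and SE and 95% intervals come from that fit. The number of arrays limits the precision. Figures used Python 3.11.15 and matplotlib 3.10.9. The fit was tested on simulated data.

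The genes, lists, tests and alternatives were chosen with earlier results of these data known. The genes named were all 9 and Rbpj, list members past the threshold or else the one farthest from 0, and the 3 genes nearest in pattern to each gene that passed. Other listed genes named with their values were chosen after these were seen. Normexp used median spot signals, the files having no mean signal.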

Additional observations from a re-analysis of the deposited data

How the results depend on the processing

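With limma, 338 genes passed as reported, 1030 with normexp, 1547 with a variance prior that follows signal and is robust (44.9% of them higher, against 55.3%), 0 without a filter on dim probes (3655 at an unadjusted p under 0.05), 0 with the replicate block (3677) and 0 to 1 without 1 array (2976 to 3506). That 1 was a transcript with no symbol here. Of the 6 tested genes, 2 passed as reported, 1 after quantile normalisation, 4 with a filter on all 4 arrays, 5 with normexp, 5 with the other variance prior, 0 without a filter, 0 with the replicate block and 0 without any 1 array, with 5 at an unadjusted p under 0.05 in each. Calls lost were Hdc after quantile normalisation (0.47) and median scaling (0.45), and Hdc (0.48) and Siglecf (-0.63, dimmer probe -0.65) with the replicate block and, for the 2 genes, without a filter. Calls gained were Cd200r3 and Mcpt8 with median scaling (-1.11 and 1.09), normexp (-0.67 and 0.85), the filter on all 4 arrays (-1.08 and 1.13) and the other variance prior (-1.08 and 1.13), Cpa3 with normexp (0.65) and that prior (0.77), and Mcpt8 with the authors' deposited values (1.13). Without 1 array Hdc stood at 0.46 to 0.50, Siglecf at -0.66 to -0.60, its dimmer probe at -0.69 to -0.60 and Prg2 at -0.33 to 0.12, above 0 without Rbpj-deficient replicate 2. A genotype left with 1 array was assumed to vary like the other. Replicate deviations correlated at -0.05 between genotypes, so the shared numbers do not pair the arrays. The other 57 values kept direction and call. The cause of these shifts was not tested. Signal near background limits Fcer1a, Ms4a2 and Epx.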
